A study of Homo sapiens with 15 samples.

Results

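Small Cajal body RNAs (scaRNAs) were taken as every gene of the count table whose name is SCARNA followed by a number, which gave 31 of 50037 genes. They were read in 15 small RNA sequencing libraries whose labels name HEK-293, a line derived from human embryonic kidney, with genotype WT, while the series title speaks of macrophages. One group received VLDL, the triglyceride-rich lipoprotein that the liver secretes, for 18 h. The second (LPL:VLDL) received the lipids that lipoprotein lipase releases from VLDL, and the third received them together with 20 µM GKT136901, which inhibits 2 NADPH oxidases, NOX1 and NOX4. The word pcDNA in the titles of the VLDL group is not explained by the labels, and no group without lipoprotein is among the samples. Each group had 5 libraries, and each of the experiments 2 to 6, as the labels number them under a batch tag, held 1 library of every group as replicates 1 to 5. The labels do not say whether an experiment was a separate passage, so p-values here rest on a spread between libraries that may in part be technical.

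Total counts ran from 5076917 to 9757123 per library, and the scaRNAs together held 124918 counts, 0.0941% of all. Of 18 genes listed for HEK-293 identity, 7 had no count and 15 had at most 10 counts over all libraries, with 155 counts in all, of which MAP1B held 98. Of 18 myeloid genes, 2 had no count (AIF1 and C1QA), 5 had at most 10, and the list held 6293 counts. CSF1R, ITGB2, SPP1 and LAPTM5 carried 5404 of these, while CD14 had 31 and LYZ 30. Counts of messenger RNAs in this small RNA table are sparse, and FBL, NOP10 and PARN, which cells of any type use, are also listed at 0. Whether the cells are another type was not tested.

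ScaRNAs are guide RNAs of Cajal bodies, the nuclear compartments in which spliceosomal small nuclear RNAs (snRNAs) are modified and assembled with proteins. Those with C and D boxes direct ribose methylation and those with H and ACA boxes direct conversion of uridine to pseudouridine, and composite ones carry both kinds of box. Most are cut out of introns of host genes after splicing, and H/ACA scaRNAs are held in the Cajal body through the short CAB box that the protein WRAP53 binds. In a small RNA library a count on a scaRNA may be a whole molecule or a fragment, and the table does not tell them apart.

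Sequences were read from the GENCODE release 29 transcripts of GRCh38, which gave one for 24 of the 31 scaRNAs; the RefSeq promoter table held no entry for them. The short H/ACA guides SCARNA20 and SCARNA22 are shown because they were the most abundant per base, and SCARNA8 because it was the scaRNA called among experiments 3 to 6. SCARNA20 lies at chr17:60231516-60231646 (minus strand), inside USP32. SCARNA22 lies at chr4:1974636-1974760 (plus strand), inside NSD2, and SCARNA8 at chr9:19063656-19063786 (minus strand), inside HAUS6. Capitals mark TGAG, the DNA letters of the CAB box, and the ACA of the 3′ end.
SCARNA20: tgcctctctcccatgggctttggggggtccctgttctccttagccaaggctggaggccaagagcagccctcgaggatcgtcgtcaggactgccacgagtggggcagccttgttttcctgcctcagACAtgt
SCARNA22: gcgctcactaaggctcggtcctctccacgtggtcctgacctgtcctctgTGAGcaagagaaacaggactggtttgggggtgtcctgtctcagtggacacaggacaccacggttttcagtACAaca
SCARNA8: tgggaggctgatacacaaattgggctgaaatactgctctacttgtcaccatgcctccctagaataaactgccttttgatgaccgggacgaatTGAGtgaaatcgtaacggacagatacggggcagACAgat

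SCARNA12 is shown as a composite guide, known to direct modification of the U5 snRNA. It lies at chr12:6967337-6967606 (minus strand), inside PHB2. Capitals mark TGATGA, the core of the C box, and TGAG, which overlap at the 5′ end.
SCARNA12: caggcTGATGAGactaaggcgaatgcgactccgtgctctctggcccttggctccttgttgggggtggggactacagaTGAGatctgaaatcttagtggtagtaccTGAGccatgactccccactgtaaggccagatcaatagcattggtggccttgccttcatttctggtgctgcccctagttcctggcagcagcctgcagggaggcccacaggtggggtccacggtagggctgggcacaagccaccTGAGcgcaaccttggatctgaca

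The C/D guides SCARNA9 (chr11:93721513-93721865, plus strand, inside CEP295), SCARNA2 (chr1:109100193-109100612, plus strand) and SCARNA7 (chr3:160514907-160515236, minus strand, inside KPNA4) are long. For them 60 bases of an end are shown, where the boxes that define the class were searched. SCARNA9 is known to direct methylation of the U2 snRNA and is annotated at 353 bases. In these lines capitals mark TGATGA, the letters of the C box, and CTGA, those of the D box, and a match need not be a box. The first 60 bases of SCARNA2 hold neither and are not shown.
SCARNA9, bases 1 to 60: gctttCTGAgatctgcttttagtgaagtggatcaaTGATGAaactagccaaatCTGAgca
SCARNA9, bases 294 to 353: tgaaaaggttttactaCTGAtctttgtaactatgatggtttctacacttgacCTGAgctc
SCARNA2, bases 361 to 420: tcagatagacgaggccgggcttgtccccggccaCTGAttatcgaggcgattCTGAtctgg
SCARNA7, bases 1 to 60: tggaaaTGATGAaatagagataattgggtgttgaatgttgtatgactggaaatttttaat
SCARNA7, bases 271 to 330: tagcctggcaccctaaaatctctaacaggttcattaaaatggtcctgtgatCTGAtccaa

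The letters TGAG were searched on the strand of the RNA. They stood in 17 of the 24 scaRNA transcripts (70.8%) and in 64 of 149 transcripts of H/ACA snoRNA genes named SNORA (43.0%). The sets were not matched for length or class, and every C/D or composite guide among the 24 held the letters. Of the guides classed as H/ACA, SCARNA1, SCARNA4, SCARNA8, SCARNA13, SCARNA16, SCARNA18 and SCARNA22 held them. SCARNA3, SCARNA11, SCARNA14, SCARNA15, SCARNA20 and SCARNA23 did not. SCARNA20 does not hold these letters and SCARNA22 holds them once, from base 50. Such a match is a description and not a site. The most alike pairs among the 5 compared were SCARNA18 and SCARNA18B, identical at 88.1% of aligned positions, and SCARNA21 and SCARNA21B, at 87.9%.

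By the RefSeq coordinates of the table, 30 of the 31 scaRNA genes lie inside a gene of the same strand, and SCARNA2, which is known to be transcribed from its own promoter, is the exception. Counts were recorded for 21 scaRNAs and, in every library, for 17. The 10 without a count fell into 2 kinds. For 4 of them an exon of another gene covered part or all of the scaRNA, and the counting left out reads that lie in exons of several genes. All 144 bases of SCARNA3 lie in an exon of COP1, all 275 bases of SCARNA13 in an exon of SNHG10, all 127 bases of SCARNA15 in an exon of FSD2 on the opposite strand, and 98 of 148 bases of SCARNA26A in an exon of YY1AP1. The other 6 share no exon: SCARNA21B, SCARNA26B, the composite guides SCARNA5 and SCARNA6 inside ATG16L1, and their copies SCARNA5_1 and SCARNA6_1 on an alternate scaffold. ATG16L1 and its copy were also listed at 0, and reads that map to several places were not counted. A count of 0 in this table may come from the counting or from absence of the RNA, and these were not told apart.

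A further 5 scaRNAs had counts but were too low to be tested: SCARNA23 (121 counts in all), SCARNA27 (106), SCARNA18 (60), SCARNA21 (19) and SCARNA18B (1). Partial overlaps remained among the tested ones, where reads over the shared bases were not counted. SCARNA16 shares 77 of 187 bases with MIR6516, SCARNA17 shares 40 of 421 with SNHG22, and SCARNA28 shares 33 of 194 with MIR3609. SCARNA9L, an X-linked gene named for its likeness to SCARNA9, was counted apart from it, and reads common to both were not counted.

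The 16 scaRNAs that passed the filter on low counts were uneven in level. SCARNA9 held 27.4% of the scaRNA counts, SCARNA20 22.8%, SCARNA22 16.8%, SCARNA2 9.65% and SCARNA7 4.01%, and the first 3 of these together held 66.9%. Levels are given as TMM-scaled CPM, which are read counts set to a common library total, where TMM is the edgeR scaling that sets libraries level over the bulk of their genes.

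SCARNA9 gave 222, 280, 314, 237 and 216 CPM in experiments 2 to 6 with VLDL, 196, 330, 310, 222 and 295 CPM with LPL:VLDL, and 221, 302, 283, 256 and 225 CPM with GKT136901. Its mean was 261 CPM ± 43.4 (SD, n = 15), and the 3 groups overlapped throughout. All 3 groups were highest in experiment 3 or 4.

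SCARNA20, known as a pseudouridine guide for the U12 snRNA of the minor spliceosome, read 200, 188, 170, 206 and 248 CPM in experiments 2 to 6 with VLDL. With LPL:VLDL it read 147, 795, 236, 119 and 164 CPM, and with GKT136901 it read 141, 168, 157, 125 and 259 CPM. The 795 CPM of experiment 3, from 5737 counts, stood above every other library. Its mean of 222 CPM ± 164 (SD, n = 15) became 181 CPM without that library.

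SCARNA22, also named ACA11, is known for its rise in myelomas in which a translocation joins the NSD2 locus to an immunoglobulin locus. It read 126, 122, 123, 205 and 226 CPM with VLDL, 83.6, 341, 150, 141 and 205 CPM with LPL:VLDL, and 81.6, 123, 121, 165 and 226 CPM with GKT136901. The library that was highest for SCARNA20 was also highest for SCARNA22, and the lowest libraries were 2 of experiment 2. The mean was 163 CPM ± 68.1 (SD, n = 15), or 150 CPM without LPL:VLDL replicate 2.

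SCARNA2, a methylation guide of the U2 snRNA, read 111, 95.7, 89.5, 79.2 and 70.4 CPM with VLDL, 98.0, 101, 87.3, 77.8 and 87.7 CPM with LPL:VLDL, and 129, 84.2, 90.3, 66.4 and 73.9 CPM with GKT136901. Its mean was 89.5 CPM ± 16.3 (SD, n = 15), with the groups overlapping. SCARNA7, a methylation guide of the U1 snRNA, read 44.5, 34.6, 34.4, 34.0 and 38.4 CPM with VLDL, 42.1, 45.8, 32.4, 27.5 and 26.3 CPM with LPL:VLDL, and 57.8, 34.6, 41.7, 33.2 and 30.5 CPM with GKT136901, with a mean of 37.2 CPM ± 8.14 (SD, n = 15). For both guides the library given GKT136901 in experiment 2 was the highest of the 15.

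Below these 5, means over the 15 libraries ran from 32.5 CPM ± 10.1 for SCARNA28, through 32.0 CPM ± 5.84 for SCARNA14, 23.4 CPM ± 5.39 for SCARNA12, 22.5 CPM ± 7.07 for SCARNA8 and 22.1 CPM ± 5.49 for SCARNA9L, to 15.2 CPM ± 2.54 for SCARNA11, 13.5 CPM ± 4.80 for SCARNA4 and 10.1 CPM ± 2.48 for SCARNA16 (SD, n = 15). Of these, SCARNA4 and SCARNA8 are H/ACA guides of the U2 snRNA, and SCARNA11, SCARNA14 and SCARNA16 are H/ACA guides too. The smallest CPM values were those of the composite guide SCARNA10 at 3.40 CPM ± 1.30, SCARNA17, a guide of the U4 snRNA, at 2.75 CPM ± 1.25, and SCARNA1, a pseudouridine guide of the U2 snRNA, at 1.67 CPM ± 0.823, with as few as 2 counts in a library (SD, n = 15).

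Scaled to annotated length, the order changed. SCARNA20 came first at 1705 CPM per kilobase and SCARNA22 next at 1301, ahead of SCARNA9 at 739, SCARNA14 at 234, SCARNA2 at 213, SCARNA8 at 171, SCARNA28 at 167 and SCARNA7 at 113 CPM per kilobase. SCARNA10, SCARNA1 and SCARNA17 were lowest, at 10.3, 10.0 and 6.53 CPM per kilobase. A gap separated the first 3 from SCARNA14. The last place of the C/D guide SCARNA17 rests on its RefSeq length of 421 bases, over which it was counted. With the 144 bases of its GENCODE transcript, an alternative chosen after seeing the data, it would stand at 19.1 CPM per kilobase, above SCARNA10 and SCARNA1.

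**Figure D1:**
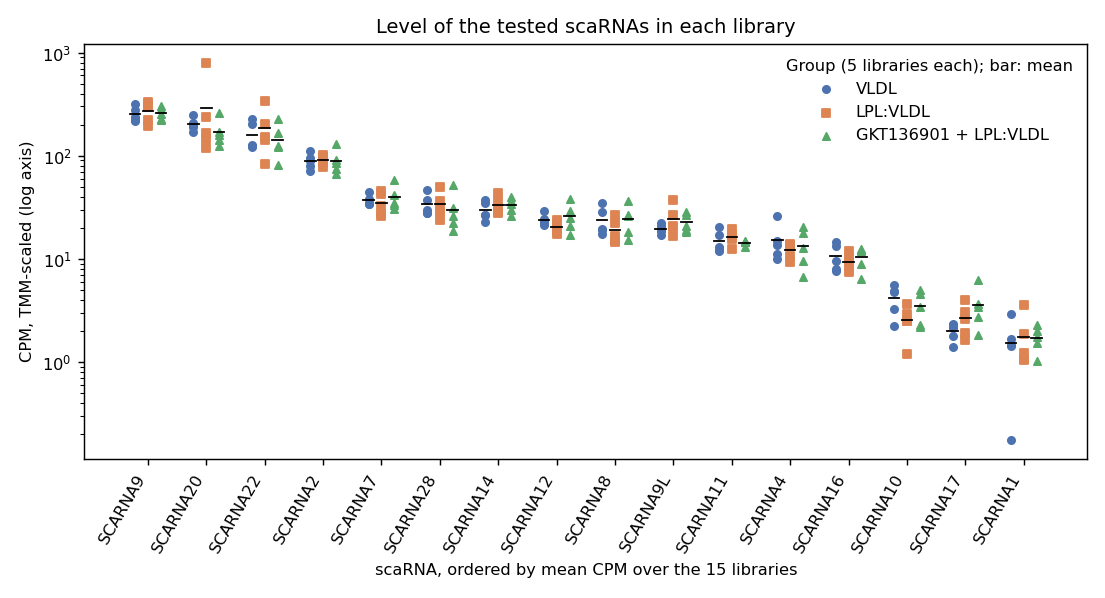
Each point is 1 library, with TMM-scaled CPM on a log axis and the 16 tested scaRNAs in order of mean CPM; colours and marks are the 3 groups of 5 libraries and bars are group means. SCARNA9, SCARNA20, SCARNA22 and SCARNA2 lie above the rest, the groups overlap for every scaRNA, and 1 LPL:VLDL library of SCARNA20 stands apart at 795 CPM.

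The comparison of LPL:VLDL with VLDL asks what the lipids released by the lipase do beyond intact VLDL, and no scaRNA passed the test in it. All 16 scaRNAs missed an adjusted p of 0.05 in edgeR's quasi-likelihood F test, against 0 of 4099 genes called (0%). Without adjustment 0 of 16 scaRNAs and 77 genes (1.88%) had p under 0.05, and with the experiment as a block 0 scaRNAs and 172 genes (4.2%). Of the 16 log2 differences 10 were above 0, with a median of 0.06, against a median of 0.01 over all genes. The block gave 1 called gene of 4099 (0.0244%), which was no scaRNA.

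SCARNA10, the U5 guide with both kinds of box, had the lowest p of the 16 without the block, and SCARNA8 had the lowest with it. SCARNA10 read 5.54, 4.89, 4.80, 2.25 and 3.25 CPM with VLDL and 3.65, 2.49, 2.89, 2.52 and 1.21 CPM with LPL:VLDL, and was lower with LPL:VLDL in 4 of 5 experiments. With GKT136901 it read 2.17, 5.03, 4.55, 3.43 and 2.29 CPM. The groups overlapped, and for LPL:VLDL against VLDL the log2 difference was -0.69 (SE 0.40, adjusted p = 0.999 by edgeR). SCARNA8, a pseudouridine guide of the U2 snRNA, read 19.5, 34.7, 28.6, 19.2 and 17.3 CPM with VLDL and 16.5, 26.7, 22.5, 14.9 and 14.6 CPM with LPL:VLDL. It was lower with LPL:VLDL in 5 of 5 experiments, at a log2 difference of -0.33 (SE 0.29, adjusted p = 0.999), or -0.32 with the block (SE 0.16, adjusted p = 0.988 by edgeR). Without VLDL replicate 2 it was -0.15.

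SCARNA12 was also lower with LPL:VLDL in 5 of 5 experiments and SCARNA14 higher in 5 of 5, at log2 differences of -0.24 (SE 0.26) and 0.18 (SE 0.24), neither called. The value of SCARNA14 was 0.0455 without LPL:VLDL replicate 5, 0.0879 without VLDL replicate 1 and 0.0579 with library-size scaling. SCARNA9L read 20.7, 18.8, 17.0, 22.1 and 18.9 CPM with VLDL and 16.8, 20.9, 20.1, 37.6 and 26.4 CPM with LPL:VLDL, a log2 difference of 0.32 (SE 0.26, adjusted p = 0.999 by edgeR), or 0.11 without LPL:VLDL replicate 4. With GKT136901 it read 19.2, 20.9, 18.1, 28.2 and 26.4 CPM. For the most abundant scaRNA, SCARNA9, the log2 difference was 0.09 with a 95% interval from -0.31 to 0.49 without the block. With the block it was 0.08, from -0.14 to 0.30, and differences within that span were not resolved. The interval for SCARNA2 was -0.42 to 0.46 without the block and -0.21 to 0.28 with it. For SCARNA22 it was -0.40 to 0.80 without the block and -0.25 to 0.51 with it.

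SCARNA20 had a log2 difference of 0.53 (SE 0.35, adjusted p = 0.999 by edgeR), although it was higher with LPL:VLDL in 2 of 5 experiments only. Without LPL:VLDL replicate 2, the library at 795 CPM, the difference turned to -0.29. That library had the lowest TMM factor of the 15, 0.765, which raises its scaled values. Among 862 genes with at least 500 counts, 75 were highest in it as a share of its total, and SCARNA20 ranked second of these, at 2.31 times the next library, after the H/ACA snoRNA SNORA47 at 2.40 times. SCARNA22 ranked 41 of the 75, at 1.17 times the next library.

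GKT136901 added to the hydrolysis products tests what inhibition of NOX1 and NOX4 changes, and again no scaRNA passed the adjusted test, with 0 of 4099 genes called (0%) with or without the block. Of the 16 log2 differences 7 were above 0, with a median of -0.02, against a median of -0.02 over all genes. Without adjustment 1 of 16 scaRNAs had p under 0.05, against 87 genes (2.12%), or against 151 genes (3.68%) with the block, where it was another scaRNA. SCARNA20 was that scaRNA without the block, at -0.78 on the log2 scale (SE 0.35, adjusted p = 1.00 by edgeR), lower with GKT136901 in 3 of 5 experiments. Without LPL:VLDL replicate 2 its log2 difference was 0.0266.

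With the block the scaRNA was SCARNA8, which read 26.4, 36.4, 26.1, 18.2 and 15.3 CPM with GKT136901 and was above its LPL:VLDL library in 5 of 5 experiments. The log2 difference was 0.35 (SE 0.16, adjusted p = 1.00 by edgeR), and 0.36 without the block (SE 0.29), or 0.17 without GKT136901 replicate 2. SCARNA12 read 28.9, 22.1, 21.2, 23.2 and 24.3 CPM with VLDL, 19.3, 17.6, 18.1, 22.4 and 23.7 CPM with LPL:VLDL, and 37.9, 16.9, 21.0, 25.0 and 28.8 CPM with GKT136901. It was higher than with LPL:VLDL in 4 of 5 experiments, at 0.36 on the log2 scale (SE 0.26), and was not called. Without GKT136901 replicate 1 the value was 0.20, and in the blocked fit without experiment 2 it was 0.17.

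Against VLDL, the group with GKT136901 also had 0 of 4099 genes called (0%) and no scaRNA among them, and 0 of 16 scaRNAs had an unadjusted p under 0.05, against 91 genes (2.22%), or 177 genes (4.32%) with the block. The median log2 difference was 0.01 over the 16 scaRNAs and 0.00 over all genes, and 8 of the 16 were above 0. SCARNA17 had the lowest p. It read 1.41, 2.34, 2.30, 2.14 and 1.81 CPM with VLDL, 1.91, 3.05, 1.62, 2.63 and 4.02 CPM with LPL:VLDL, and 6.31, 3.42, 3.68, 2.74 and 1.83 CPM with GKT136901. It was higher with GKT136901 than with VLDL in 5 of 5 experiments, while the lowest library with GKT136901 lay within the range of the VLDL libraries. The log2 difference was 0.85 (SE 0.42, adjusted p = 0.999 by edgeR), from 15 to 61 counts per library of these groups. Without GKT136901 replicate 1, the library at 6.31 CPM, it was 0.54, and in the blocked fit without experiment 2 it was 0.41. The 3 comparisons share their groups, so their values are not independent of each other. The HEK-293 list summed to 1.28 to 2.58 CPM of the total with VLDL, 0.110 to 0.740 with LPL:VLDL and 0.111 to 1.44 with GKT136901, and its part in the treatment differences was not tested.

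**Figure D2:**
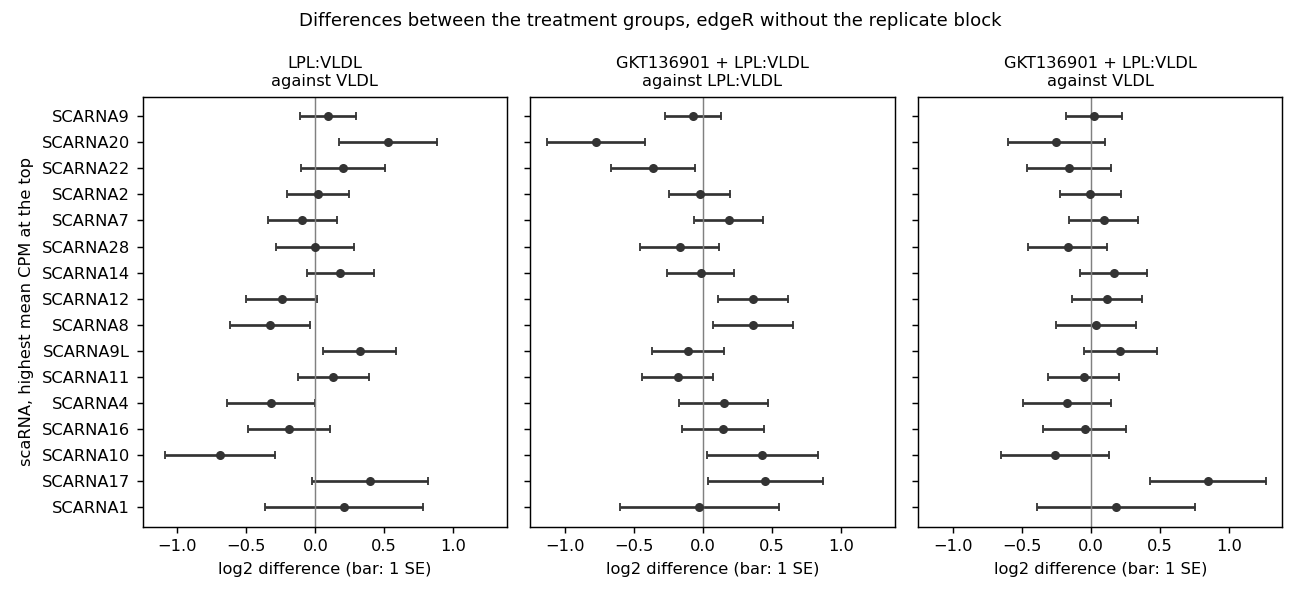
Log2 differences of the 16 tested scaRNAs in the 3 comparisons, with the scaRNA of highest mean CPM at the top and bars of 1 SE, from the edgeR model without the block. No scaRNA was called; SCARNA20 lies at 0.53 and -0.78 in the first 2 panels, which share the library at 795 CPM, and SCARNA17 lies at 0.85 in the third panel.

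The summed scaRNA share of all counts was 966 CPM of the total ± 112 with VLDL, 958 ± 248 under LPL:VLDL and 894 ± 62.3 after GKT136901 was added (SD, n = 5 per group), differences smaller than the spread within the LPL:VLDL group. Without SCARNA20 the shares were 754 ± 81.4, 705 ± 68.7 and 724 ± 60.9 CPM of the total.

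More scaRNAs passed the test between the 5 experiments than between the treatments. The 3 libraries of an experiment share whatever that experiment had in common, so these are differences between runs of the work and not of a treatment. An F test over experiments 2 to 6, in a model of group and experiment, called 455 of 4099 genes (11.1%) and 5 of 16 scaRNAs (31.2%). By class it called 14 of 67 SNORA genes (20.9%), 71 of 166 C/D snoRNA genes named SNORD (42.8%) and 2 of 12 snRNA genes (16.7%). The scaRNA share thus lay above that of all genes and between those of the snoRNA classes.

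The called scaRNAs were SCARNA28 (adjusted p = 0.00104 by edgeR), SCARNA8 (adjusted p = 0.00222), SCARNA22 (adjusted p = 0.00689), SCARNA9 (adjusted p = 0.0407) and SCARNA20 (adjusted p = 0.0499). SCARNA28 and SCARNA8 were called in every fit that left out 1 of the 15 libraries. The call of SCARNA22 was lost without LPL:VLDL replicate 1 (adjusted p = 0.0549), that of SCARNA9 without any of VLDL replicate 3, LPL:VLDL replicate 1 or LPL:VLDL replicate 3 (up to 0.125), and that of SCARNA20 in 7 of 15 such fits (up to 0.140): without VLDL replicate 5, LPL:VLDL replicate 1, 2, 3 or 4, or GKT136901 replicate 1 or 4. Other settings also lost calls. With DESeq2, SCARNA22 (adjusted p = 0.114) and SCARNA20 (0.455) were not called, and with library-size scaling SCARNA22 (0.0787), SCARNA9 (0.118) and SCARNA20 (0.0759) were not. With DESeq2 size factors in edgeR, or with at least 10 counts in every library, SCARNA9 and SCARNA20 were not called (adjusted p from 0.0537 to 0.306). Without a filter on low counts SCARNA28 was not (0.0671), and without the LPL:VLDL group SCARNA9 (0.244) and SCARNA20 (0.0675) were not. SCARNA8 was called in all of these fits. Among experiments 3 to 6 alone, SCARNA8 was the only scaRNA called (adjusted p = 0.00368), with 145 genes called.

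SCARNA8 averaged 32.6 CPM ± 5.17 in experiment 3, 25.7 ± 3.09 in experiment 4, 20.8 ± 5.07 in experiment 2, 17.4 ± 2.23 in experiment 5 and 15.8 ± 1.42 in experiment 6 (SD, n = 3 each). Every group was highest in experiment 3 and lowest in experiment 6. Experiment accounted for 80.6% of the variance of its log2 CPM and group for 13.4%. The shares for experiment were 81.4% for SCARNA28, 77.6% for SCARNA14, 76.1% for SCARNA2 and 74.9% for SCARNA9. SCARNA17 stood at the other end, with 3.44% for experiment and 31.0% for group. These are shares of the sum of squares, not adjusted for degrees of freedom, of which experiment has more than group. Both take some share by chance.

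Experiment 2 stood apart for several scaRNAs when set against the mean of experiments 3 to 6. SCARNA28, SCARNA2 and SCARNA7 were higher in experiment 2 and SCARNA22 was lower. Thus 4 of 16 scaRNAs (25%) were called, against 441 of 4099 genes (10.8%). By class the calls were 5 of 67 SNORA genes (7.46%), 38 of 166 SNORD genes (22.9%) and 2 of 12 snRNA genes (16.7%). In the higher direction 3 scaRNAs were called against 171 of all genes (4.17%), and in the lower direction 1 scaRNA against 270 (6.59%). The comparison was chosen because experiment 2 was already known to stand apart in these data, and its size depends on the scaling. TMM factors were 1.16 to 1.34 in experiment 2 and 0.765 to 1.03 in the others. With scaling by library size the median log2 difference of all genes moved from 0.12 to 0.55, and the share of calls in the higher direction from 38.8% to 81%. Of the 16 scaRNAs, 14 were then above 0 in place of 7, and 5 were called higher and 0 lower: SCARNA12 (0.78, adjusted p = 0.000844 by edgeR) and SCARNA4 (0.66, adjusted p = 0.0331) were called and SCARNA22 was not.

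SCARNA28, also named ZL1, sits in TRRAP. It read 46.7, 27.7, 29.8, 27.7 and 36.9 CPM with VLDL, 49.6, 30.7, 23.9, 28.4 and 36.2 CPM with LPL:VLDL, and 52.4, 18.5, 25.8, 22.0 and 31.1 CPM with GKT136901. The 3 libraries of experiment 2 lay above all 12 others, which was so for 136 of 4099 genes (3.32%), while 190 genes (4.64%) lay below in the same way and no scaRNA did. Means were 49.6 CPM ± 2.80 (SD, n = 3) against 28.2 CPM ± 5.34 (SD, n = 12), a log2 difference of 0.84 (SE 0.15, adjusted p = 0.000129 by edgeR). It was called whichever library was left out, with an adjusted p of at most 0.0147, and was 1.27 on the log2 scale with library-size scaling.

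SCARNA2 averaged 113 CPM ± 15.7 in experiment 2 (SD, n = 3) and 83.6 CPM ± 10.4 in the others (SD, n = 12), a log2 difference of 0.44 (SE 0.12, adjusted p = 0.0167 by edgeR). SCARNA7 averaged 48.1 CPM ± 8.48 against 34.5 CPM ± 5.52, a log2 difference of 0.48 (SE 0.15, adjusted p = 0.0388 by edgeR). The ranges overlapped for both guides. The call of SCARNA2 was lost in 6 of 15 fits without 1 library, namely VLDL replicate 1 or 5, LPL:VLDL replicate 3, or GKT136901 replicate 1, 2 or 5. The call of SCARNA7 was lost in 12 of 15, all but those without VLDL replicate 4 or 5 or LPL:VLDL replicate 2. The highest adjusted p came without GKT136901 replicate 1, at 0.400 for SCARNA2 and 0.395 for SCARNA7. Without any 1 of the 3 libraries of experiment 2, 2 scaRNAs were called in place of 4. Without a filter on low counts neither was called (adjusted p = 0.430 and 0.585). With library-size scaling both were called, at 0.86 and 0.91 on the log2 scale.

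SCARNA22 averaged 97.0 CPM ± 25.0 in experiment 2 (SD, n = 3) and 179 CPM ± 65.7 in the others (SD, n = 12), a log2 difference of -0.85 (SE 0.20, adjusted p = 0.00475 by edgeR). The ranges overlapped. The call was lost without LPL:VLDL replicate 1 (adjusted p = 0.0926) and with library-size scaling, where the log2 difference was -0.41 (adjusted p = 0.0978). SCARNA9 averaged 213 CPM ± 15.1 against 273 CPM ± 39.9, a log2 difference of -0.34 (SE 0.12, adjusted p = 0.0568 by edgeR) that was not called. It was called by DESeq2 (adjusted p = 0.0422) and by limma voom (0.0408), and with library-size scaling it was 0.0875. Many edgeR fits that left out 1 library also called SCARNA9 lower. These were the fits without VLDL replicate 2, 4 or 5, LPL:VLDL replicate 2, 3 or 4, or GKT136901 replicate 2, 3 or 5. The remaining fits of this kind did not call it.

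**Figure D3:**
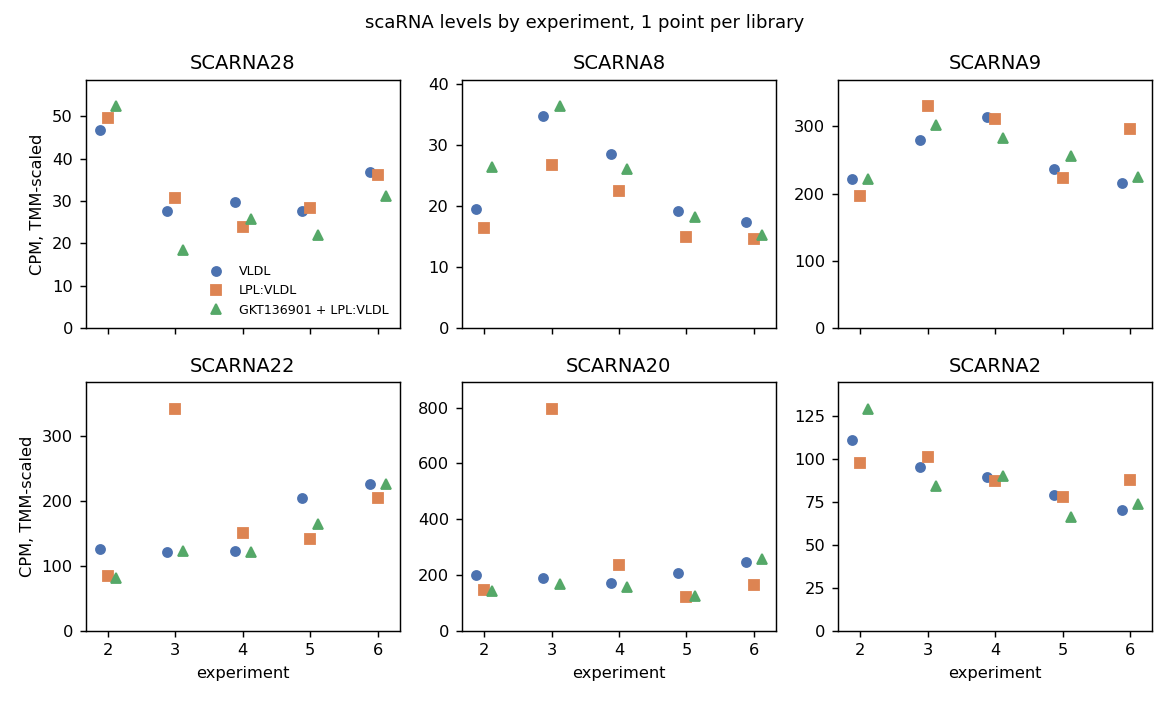
TMM-scaled CPM of 6 scaRNAs by experiment, 1 point per library with the group as colour and mark, on axes that start at 0. SCARNA28 is highest in all 3 libraries of experiment 2, SCARNA8 peaks in experiment 3 at 26.7 to 36.4 CPM, and the LPL:VLDL library of experiment 3 stands apart for SCARNA20 and SCARNA22.

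With TMM scaling, longer scaRNAs were more often above 0 in experiment 2 than shorter ones. Of 9 tested scaRNAs of 180 bases or longer, 6 were above 0 and 3 were called higher, with a median log2 difference of 0.27. Of 7 shorter ones, 1 was above 0 and 1 was called lower, with a median of -0.30. Every shorter one was classed as an H/ACA guide. The longer ones were C/D or composite guides, except the H/ACA guide SCARNA16, at -0.16, and SCARNA28, which was not classed. Length and guide class therefore cannot be told apart here. With library-size scaling 9 of 9 long and 5 of 7 short scaRNAs were above 0, with medians of 0.72 and 0.13. With SCARNA17 at its GENCODE length, 5 of 8 long and 2 of 8 short ones were above 0 under TMM. The limit of 180 bases and these alternatives were chosen after these values were seen, and no test was made. Spearman's rho between length and difference was 0.45 across the 16 scaRNAs (0.43 with library-size scaling), which share libraries and are not independent. It was -0.07 across 67 SNORA genes and 0.29 across 166 SNORD genes. SCARNA9 and SCARNA9L, both of more than 340 bases, were exceptions at -0.34 and -0.24.

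**Figure D4:**
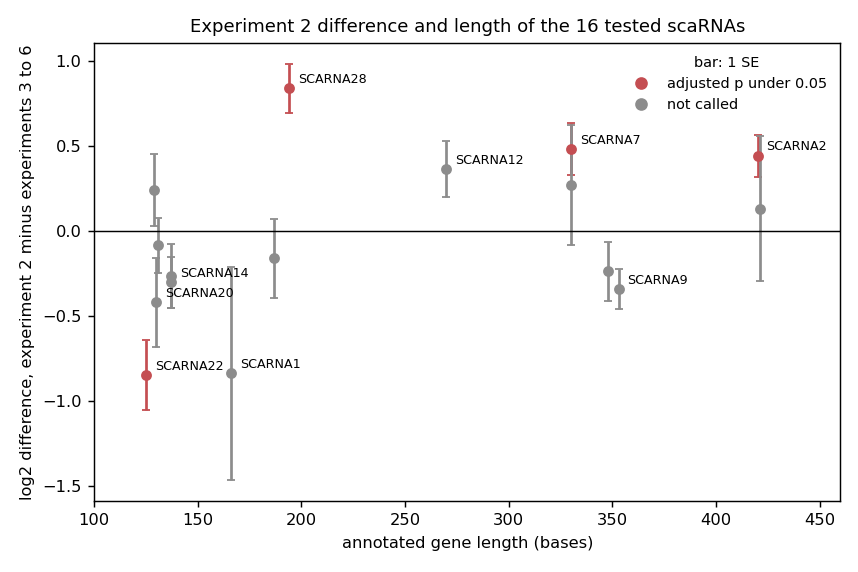
Log2 difference of experiment 2 minus experiments 3 to 6 (bar: 1 SE) against annotated gene length in bases for the 16 tested scaRNAs, with called ones in red. SCARNA28, SCARNA7 and SCARNA2 lie above 0 and the 125-base SCARNA22 lies at -0.85, while SCARNA9 is long and lies at -0.34.

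Other RNAs moved with experiment 2 as well. The Y RNA RNY1 stood at 21773 to 25412 TMM-scaled CPM in its 3 libraries and at 5417 to 9476 in the 12 others. The 7SK RNA stood at 126 to 144 against 153 to 236 TMM-scaled CPM. TMM factors of 1.16 to 1.34 lower the scaled values of experiment 2. The 7SK ranges parted with TMM scaling but overlapped as shares of all counts. The 18 myeloid genes summed to 78.6 to 121 CPM of the total in experiment 2 and 25.7 to 53.3 in the 12 others, while the 3 values of the HEK-293 list lay within the 0.110 to 2.58 of the 12 others. The part of these RNAs in the scaRNA differences was not tested. As a share of all counts the scaRNAs were 1.14 times as high in experiment 2 as in the others, and 0.838 times as high by TMM-scaled CPM.

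The partners of the scaRNAs were thinly covered. A list of 50 genes held the spliceosomal snRNAs and TERC, the telomerase RNA that also carries an H/ACA domain and a CAB box. Of these, 25 had a count and 13 were tested, and none was called between treatments. In experiment 2 all 13 log2 differences were below 0 with TMM scaling, against 1822 of 4099 genes (44.4%), and 2 were called lower, RNU5E-1 and RNVU1-15, against 270 genes (6.59%). With library-size scaling 7 of the 13 were below 0, and these 2 were still called lower, RNU5E-1 at -0.56 (adjusted p = 0.0233 by edgeR) and RNVU1-15 at -2.51 (adjusted p = 0.0280). RNU5E-1, a U5 gene and so of the snRNA that SCARNA10 and SCARNA12 guide, averaged 58.1 CPM ± 10.4 in experiment 2 (SD, n = 3) and 120 CPM ± 37.7 in the others (SD, n = 12), a log2 difference of -0.99 (SE 0.20, adjusted p = 0.000616 by edgeR). RNU12, the U12 snRNA, had a log2 difference of -0.08 (SE 0.16) with TMM and 0.35 (SE 0.15) with library-size scaling, with no call in either.

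Of 30 host genes 26 had a count and 9 were tested, and none was called between treatments. CHD4, the host of SCARNA11, was higher in experiment 2, at 5.44 CPM ± 1.56 (SD, n = 3) against 2.35 CPM ± 1.09 (SD, n = 12), a log2 difference of 1.37 (SE 0.37, adjusted p = 0.0123 by edgeR). SCARNA11 itself had a log2 difference of -0.27 (SE 0.19) in the same comparison, with no call. Of 27 proteins of Cajal bodies and scaRNA particles, 22 had a count and 4 were tested (GEMIN5, NOP58, SART3 and ELL), and none was called in any comparison. NOP58, a core protein of C/D particles, had the lowest p of the 4 between LPL:VLDL and VLDL, at a log2 difference of -2.07 (SE 0.94, adjusted p = 0.999 by edgeR).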

How the data were processed

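The deposited table gives raw read counts for each gene and library, not normalized by the authors. The tools named per the submitters' processing notes are fastp 0.24.0, STAR 2.7.11b (hg38) and, with no role stated, R 4.4.2, edgeR 4.4.2 and DESeq2 1.46. Per the file headers, featureCounts 2.0.6 counted exons by gene on the RefSeq annotation, with no setting for strand, for reads that map more than once or for genes that overlap. Reads mapping to several places or lying in exons of several genes were therefore not counted, and sense and antisense reads were not told apart.

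Genes were kept by edgeR's filterByExpr with a minimum count of 10 and a minimum total of 15. This left 4099 genes with 99.664% of the counts, among them 16 scaRNAs. Each gene was tested by the quasi-likelihood F test of edgeR 4.0.16 under R 4.3.3. The test was two-sided, in a single model of the 3 groups over all libraries, with Benjamini-Hochberg adjustment over all genes tested; an adjusted p under 0.05 was called. Experiments were tested in a model of group and experiment. The fits were tested on counts simulated from a common mean profile, with set changes in chosen genes and no other difference between experiments. That check does not cover the scaling differences of experiment 2. CPM values are TMM-scaled, and 95% intervals are the log2 difference with 1.96 SE on each side. Alternatives were the replicate block, DESeq2 1.42.0, limma voom 3.58.1, other scalings and filters, fits of 2 groups, and leaving out libraries or experiments.

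The labels give same-numbered replicates a shared experiment, so libraries with the same number were taken as paired. The 15 such pairs correlated, after subtraction of each group's mean, at r = 0.0853 to 0.424 (median 0.131), against a median of -0.08 in other pairs. Libraries of a group differed by more than counting noise (chi-square over its degrees of freedom at least 12.9), so none was counted as a repeat. The biological coefficient of variation was 0.583, and 0.513 with the block. Levels were given in every library for the 5 scaRNAs of highest mean CPM, those called in a comparison, and the 3 with the lowest p in each comparison. The scaRNAs, the gene lists and the comparison of experiment 2 were chosen with earlier results of these data known.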

Additional observations from a re-analysis of the deposited data

Results flagged for a closer look

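SCARNA20 stood apart in LPL:VLDL replicate 2, at 794.6 CPM against 236 CPM in the next library of its group. The gap was 0.827 of the group's range, above the 0.71 that Dixon's test allows for 5 libraries. SCARNA11 stood apart in GKT136901 replicate 4, at 13.1 CPM against 14.5 CPM in the next library, a gap of 0.739 of a narrow range. In 51 such group tests of the tested scaRNAs and their sum these were the 2 that passed, and chance alone passes about 1 in 20.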

How the results depend on the processing

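No scaRNA was called between treatments in any fit that was run. The replicate block called 1 gene for LPL:VLDL against VLDL, where the fit without it called 0, and changed no other call. With the block, DESeq2 called 1 gene for LPL:VLDL against VLDL and 2 for GKT136901 against VLDL, and limma voom called 4 and 3. Leaving out 1 library, or 1 experiment in the blocked fit, gave 0 to 2 genes for LPL:VLDL against VLDL. Over the same left-out libraries and experiments the log2 difference of SCARNA20 ran from -0.34 to 0.73 for LPL:VLDL against VLDL and from -1.01 to 0.0266 for GKT136901 against LPL:VLDL, and that of SCARNA22 from -0.60 to 0.00205 in the latter. The sign turned without LPL:VLDL replicate 2 for SCARNA20, and in the blocked fit without its experiment for both scaRNAs.

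Over experiments 2 to 6 the 455 called genes became 145 without experiment 2 and 242 without the LPL:VLDL group, an alternative chosen after seeing the data. The 5 called scaRNAs became 3 with DESeq2 size factors, 9 with at least 10 counts in every library, 1 without experiment 2 and 3 without the LPL:VLDL group. Leaving out 1 library gave 2 to 6 called scaRNAs, with 2 without LPL:VLDL replicate 1 and 3 without LPL:VLDL replicate 3.

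For experiment 2, the 441 called genes became 709 with library-size scaling and 291 without the LPL:VLDL group, and 271 to 475 with 1 library left out, lowest without LPL:VLDL replicate 1, with 292 without VLDL replicate 1. The 4 called scaRNAs became 2 with no filter on low counts, and 2 to 5 with 1 library left out. Library-size scaling turned SCARNA9 to 0.0875, SCARNA11 to 0.16, SCARNA14 to 0.13, SCARNA20 to 0.0196, SCARNA9L to 0.19, SCARNA8 to 0.34 and SCARNA16 to 0.26 on the log2 scale, all below 0 with TMM. Over the left-out libraries SCARNA4, at 0.24, ran from -0.00171 without GKT136901 replicate 1 to 0.36, and with library-size scaling it was 0.66 and called. The ratio of scaRNA shares was 0.838 with TMM-scaled CPM in place of 1.14. The causes were not tested. SCARNA1, SCARNA10 and SCARNA17 had at most 63 counts in a library, which limits what could be seen for them.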
